A study of Rattus norvegicus with 15 samples.

Results

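The genes described here carry names given for their testis or sperm expression. They are the spermatogenesis associated (Spata) and testis expressed (Tex) genes, the outer dense fibre (Odf) genes, the testis-specific serine kinases (Tssk), the Tsga, Ropn1, Theg and Gsg1 names, and Meig1, Cabyr, Smcp, Fscn3, Dbil5, Cabs1, Spem1, Tsks and Fam229b. They were chosen by gene symbol alone, from probe sets that the array's annotation pairs with a single symbol. The choice gave 44 genes with 58 probe sets, of 14217 genes with a single symbol in all. Of these, 36 matched a name pattern and 8 were listed by name, while Spem1 and Theg matched no probe set used here.

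The measurements come from whole testes of LBNF1 rats aged 25 to 27 weeks, hybridised to Affymetrix expression arrays as biotin-labelled cRNA. The control group holds 10 arrays and, by its source label, testes taken before irradiation. The irradiated group holds 5 arrays of testes after 6 Gy to the lower abdomen, with the interval to collection not given in the sources used here. All samples share strain, tissue and age range, no genetic change is labelled in either group, and the labels call them biological replicates without saying whether each is a separate rat, so the tests see only how these arrays vary among themselves. The treatment text of the labels is the same for both groups. Values are log2 signals with an unknown zero point, and the median of an array's probe sets lay between -1.61 and -1.37 in control and between -1.38 and -1.26 in irradiated arrays.

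Spermatids are the haploid cells that leave meiosis and remodel into sperm. They build a tail whose axoneme is wrapped in outer dense fibres, a fibrous sheath and a helix of mitochondria, and they condense their nucleus. Much of this needs gene products made nowhere else, transcribed under regulators such as the cyclic AMP responsive factor Crem and RFX factors. Other genes that received a testis name when they were first cloned were later found in many tissues, so a Spata or Tex symbol does not by itself mark a germ cell gene.

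The labelled tissue was checked against defining markers. Of tested markers, 16 of 16 of Sertoli cells, 10 of 10 of Leydig cells and 7 of 7 of peritubular myoid cells were higher in irradiated testes, and 8 of 8 of spermatocytes were lower. Of all genes tested, 47.6% were higher and 37.9% lower. Among the markers that rose, 15 of Sertoli cells, 10 of Leydig cells and 5 of myoid cells reached the array median in both groups. The mean log2 signal of the Sertoli cell markers lay between 0.34 and 0.83 in control and between 2.92 and 3.19 in irradiated arrays. That of the spermatocyte markers lay between 2.28 and 2.75 in control and between -3.62 and -2.95 in irradiated arrays. The latter values lie below the array medians, where signals have no order. In 7 of the 8 spermatocyte markers all irradiated signals lay below the array median, so that only a fall could be seen. Macrophage markers rose in 8 of 9 and fell in 1. Of 5 tested markers of undifferentiated spermatogonia, 1 rose, 2 fell and 2 did not pass. Spink8 was the only tested marker of the epididymis list and its signal fell by 1.60. In whole testis, fewer cells of a type and less RNA per cell cannot be told apart, and the part of these markers in the results below was not tested.

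The promoters of 5 genes are printed as examples of low and high CpG content, and because one of them holds the only cyclic AMP response element found. Each is the 250 bases before the annotated start in RefSeq's GRCr8 assembly, written 5′ to 3′. In the first 4, capitals mark CpG dinucleotides. Smcp (chr2:180861565-180861814, minus strand) and Cabs1 (chr14:20378277-20378526, minus strand), whose products occur in spermatids and sperm, have 1 and 0 CpG. Tex264 (chr8:116201416-116201665, minus strand) and Spata13 (chr15:38954408-38954657, plus strand), whose products are known in many tissues, have 25 and 21. These 4 do not stand for all the genes. Under 6 CpG were found in 2 of 12 genes listed below as known outside germ cells and in 16 of 29 others. In Spata7 (chr6:123609364-123609613, plus strand) capitals mark the cyclic AMP response element.
Smcp: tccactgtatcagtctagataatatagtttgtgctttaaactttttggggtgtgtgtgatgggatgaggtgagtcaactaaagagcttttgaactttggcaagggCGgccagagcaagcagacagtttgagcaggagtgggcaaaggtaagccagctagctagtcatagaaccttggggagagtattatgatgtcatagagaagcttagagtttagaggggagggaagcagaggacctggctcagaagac
Cabs1: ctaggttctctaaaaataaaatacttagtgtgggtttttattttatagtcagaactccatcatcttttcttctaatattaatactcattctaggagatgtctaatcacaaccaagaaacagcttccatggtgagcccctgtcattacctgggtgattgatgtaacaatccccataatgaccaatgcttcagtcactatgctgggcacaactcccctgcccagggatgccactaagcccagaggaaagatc
Tex264: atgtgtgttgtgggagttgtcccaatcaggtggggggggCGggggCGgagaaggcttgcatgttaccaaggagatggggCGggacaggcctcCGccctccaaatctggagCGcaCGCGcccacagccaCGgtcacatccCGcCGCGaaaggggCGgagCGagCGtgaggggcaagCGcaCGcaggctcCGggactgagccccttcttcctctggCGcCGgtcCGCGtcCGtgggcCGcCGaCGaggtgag
Spata13: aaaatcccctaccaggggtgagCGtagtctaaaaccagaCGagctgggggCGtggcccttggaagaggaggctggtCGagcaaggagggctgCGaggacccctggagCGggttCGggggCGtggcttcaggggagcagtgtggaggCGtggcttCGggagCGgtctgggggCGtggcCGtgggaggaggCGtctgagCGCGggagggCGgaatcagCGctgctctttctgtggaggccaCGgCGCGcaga
Spata7: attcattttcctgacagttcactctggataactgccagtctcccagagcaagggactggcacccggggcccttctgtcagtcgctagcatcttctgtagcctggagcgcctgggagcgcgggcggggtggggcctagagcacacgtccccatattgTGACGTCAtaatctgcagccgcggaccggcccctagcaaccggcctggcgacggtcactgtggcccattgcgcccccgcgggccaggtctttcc

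Nearly all of these genes were lower in irradiated testes. Of 44 genes, 41 fell, 1 rose (Spata13) and 2 did not pass (Tex19.2 and Tex264), at an adjusted p below 0.05 in limma, a linear model fitted to all probe sets tested. Over all 10841 genes tested, 85.5% passed: 37.9% fell and 47.6% rose. The median change, irradiated minus control, was -5.54 over the 44 genes and 0.20 over all genes. In 30 of the 44 genes the irradiated mean lay below the array median, and with values raised to that median the same medians were -3.48 and 0.19. With a pseudocount of 1 the median of the 44 was -2.38. In 37 of the 44 genes all 5 irradiated arrays lay below all 10 control arrays, against 29% of all genes, and in 1 they all lay above, against 40.5%. The gene names were chosen with earlier results of these data known, so these counts are a description.

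A filter on low signals shapes such counts. Testing was limited to probe sets at or above the median of the array in 5 or more of the 15 arrays. All 44 genes had a probe set that passed, 52 of the 58 probe sets in all. In 27 genes the probe set used passed through control arrays alone, since all 5 irradiated arrays lay below their medians, and such a gene had to differ. Of all genes tested, 12.8% likewise lay below the median in all irradiated arrays. Of the other 17 genes, 14 fell and 1 rose. In 3 of these 17, Odf1, Smcp and Spata19, only 1 irradiated array reached its median. Of the 14 genes whose irradiated mean lay above the median, 11 fell. Among all genes that reached the median in 1 or more arrays of both groups, 31.6% fell and 51.5% rose. For a gene below the array median the text gives a bound, in which the values below the median are raised to it, written as "at least N-fold lower". Signals below the median have no order. The limma p-values printed beside bounds come from the signals as deposited, not from the bounds. In the 27 genes they are no support for a fall, since such genes had to differ. Nearly the same limit holds for Odf1, Smcp and Spata19.

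**Figure D1:**
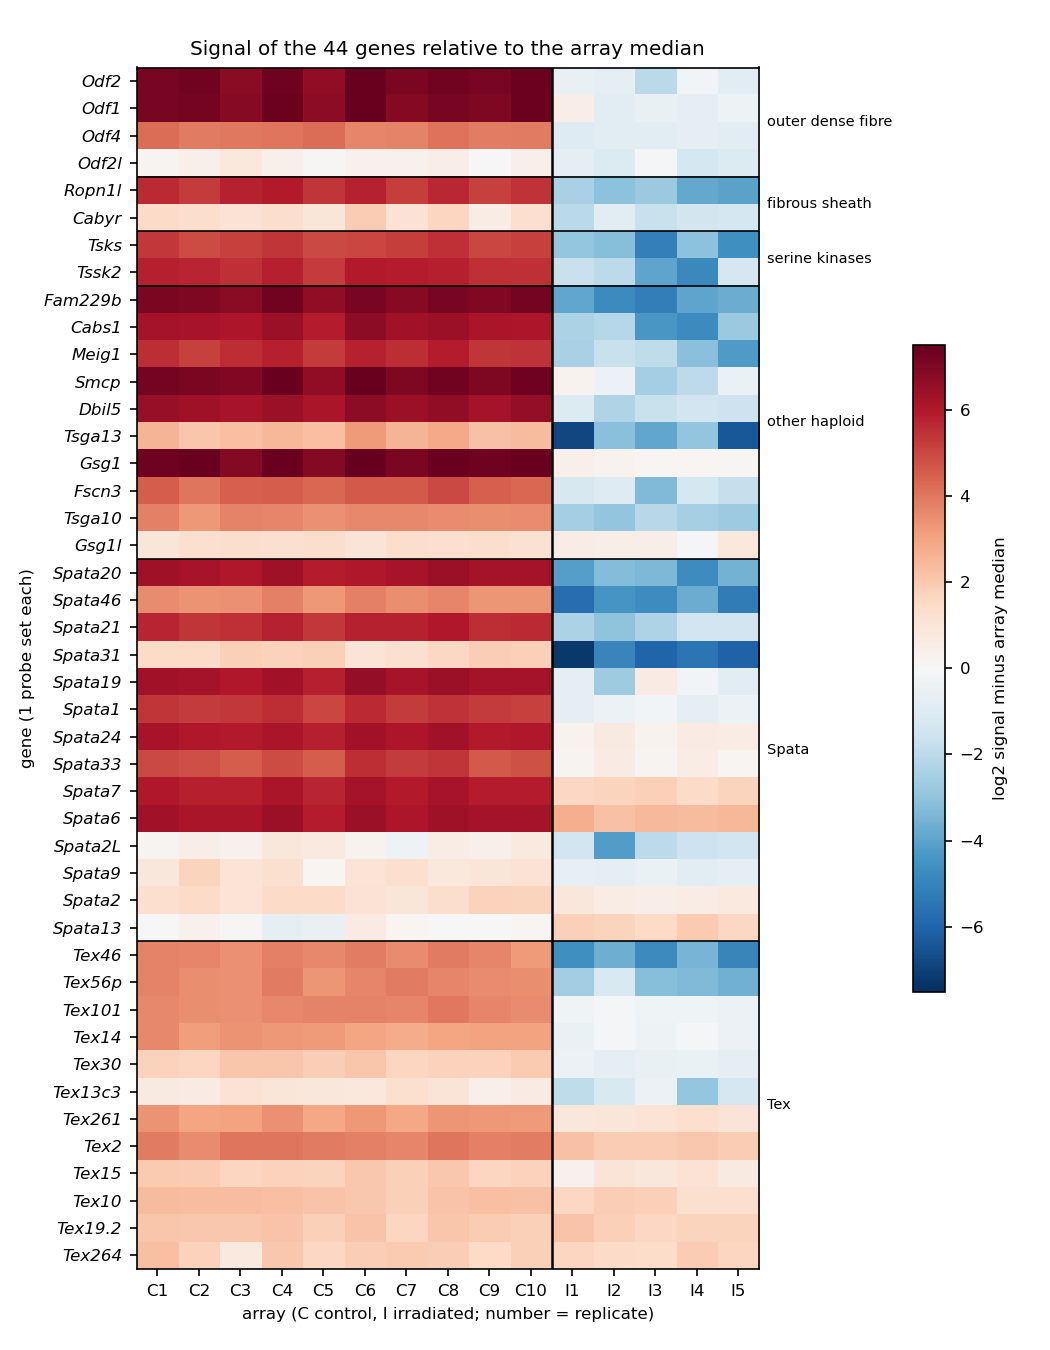
Log2 signal minus the array's median for the 44 genes (rows, 1 probe set each, grouped by role) in the 15 arrays (columns, C control and I irradiated, numbered by replicate). Colour runs from blue, below the array median, to red, above it. In 27 genes all 5 irradiated columns lie below the array median, and Spata13 alone is higher in all irradiated than in all control arrays.

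Large falls were counted with bounds, again as a description. With values below the array median raised to it, 26 of 44 genes (59.1%) were at least 10-fold lower, against 3.75% of all genes tested. Such a fall could be counted only in genes with control signals well above the array median, and the shares were not matched for control signal. At least 100-fold lower were 12 genes of the whole array (0.111%), and 5 of these were Fam229b, Gsg1, Odf1, Odf2 and Smcp. Odf2 counted through probe set 1368466_a_at, while its other tested probe set changed by -0.14. At 64-fold the count was 8 of 44, against 23 of all genes (0.212%), with Cabs1, Dbil5 and Spata20 added. Such falls were not particular to these names, since 21 of 27 tested spermatid genes with other names were at least 10-fold lower and 5 at least 100-fold.

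**Figure D2:**
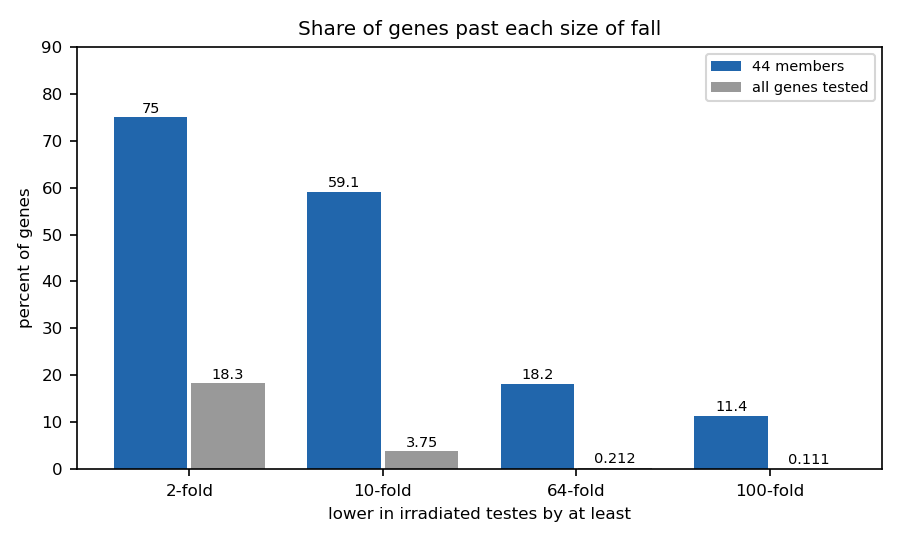
Percent of genes at least 2, 10, 64 and 100-fold lower in irradiated testes, values below the array median raised to it. Blue bars are the 44 genes and grey bars all 10841 genes tested. The shares were 75% and 18.3% at 2-fold and 11.4% and 0.111% at 100-fold.

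The outer dense fibres are stiff rods along the sperm tail, and Odf1 encodes their main protein. Odf1 (probe set 1368496_at) had a lowest, median and highest log2 signal of 5.33, 5.55 and 6.09 in control arrays. In irradiated replicates 1 to 5 it had -0.77, -2.22, -1.86, -2.05 and -1.64. The groups did not overlap, and irradiated replicate 1 was the only one above its array's median. Odf1 was at least 116-fold lower (limma adjusted p = 3.04e-15).

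Odf2 encodes a protein of both the outer dense fibres and the centrosome, and its probe sets gave different results. Probe set 1368466_a_at had a lowest, median and highest signal of 5.25, 5.70 and 6.00 in control arrays and -1.81, -2.01, -3.29, -1.58 and -2.10 in irradiated arrays, and it was at least 125-fold lower (limma adjusted p = 4.44e-15). Probe set 1399142_at had 0.13, 0.35 and 0.53 in control and 0.09, 0.29, 0.26, 0.46 and 0.00 in irradiated arrays. These ranges overlapped, and the change of -0.14 ± 0.09 (SE) did not pass (limma adjusted p = 0.159). The difference between the changes of the 2 probe sets was -7.68, or -6.83 with values raised to the array median (exact permutation test over the 15 arrays, 2-sided, p = 0.000333, the smallest these can give, adjusted p = 0.000381 over 8 genes). One more Odf2 probe set lay below the array median in all 15 arrays and was not tested. The call for Odf2 therefore rests on 1 probe set. Its other tested probe set passed as lower with quantile scaling (-0.51, limma adjusted p = 0.000125), median centring (-0.29, adjusted p = 0.016) and centring on the Sertoli cell markers (-2.31, adjusted p = 1.15e-11).

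Odf4, a further outer dense fibre gene, fell in both probe sets. Probe set 1386673_at had 2.15, 2.48 and 2.82 as lowest, median and highest control signal. Its irradiated signals were the most alike of all 44 genes, at -2.23, -2.13, -2.13, -2.08 and -2.09 (SD 0.06), and it was at least 13.8-fold lower. Odf2l, which encodes an Odf2-like protein of centrioles, lay near the array median in control arrays and below it in all irradiated arrays, with signals of -1.54, -1.08 and -0.66 (lowest, median, highest) in control and -1.95, -2.35, -1.42, -2.69 and -2.28 in irradiated arrays. It passed as lower (limma adjusted p = 4.59e-05), but the ranges overlapped, the bound was only 1.13-fold, and with values raised to the array median it did not pass (-0.18, adjusted p = 0.116).

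The fibrous sheath surrounds the principal piece of the tail and anchors signalling enzymes. Ropn1l encodes a ropporin-like protein of the sheath that binds A-kinase anchors. Its control signals were 3.63 at the lowest, 4.02 at the median and 4.51 at the highest. The irradiated signals were -3.70, -4.43, -4.07, -5.20 and -5.27, all below the array medians, and it was at least 40.8-fold lower (limma adjusted p = 2.74e-15). Cabyr encodes a calcium-binding protein of the same sheath. Its control signals ran from -0.93 to 0.42 and its irradiated signals from -3.28 to -2.18, with no overlap. It was at least 2.14-fold lower (limma adjusted p = 1.88e-09), a bound kept small by its low control signal.

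Tssk2 is a kinase of spermatids and Tsks the protein named as the substrate of these kinases. Tssk2 had a lowest, median and highest control signal of 3.89, 4.24 and 4.47. In irradiated arrays it had -2.93, -3.31, -5.27, -6.21 and -2.54. Tsks had 3.44, 3.66 and 3.98 in control arrays and -4.13, -4.55, -6.44, -4.46 and -5.86 in irradiated arrays. In both genes every irradiated signal was under, and every control signal over, the median of its array. Tssk2 was at least 45.7-fold lower and Tsks at least 31.6-fold lower (limma adjusted p = 2.68e-11 and 4.16e-14).

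Of the other 10 genes, all but Gsg1l known from haploid germ cells, 10 fell, against 37.9% of all genes. In 7 of them all irradiated signals lay below the array median, so that only a fall could be seen. Smcp encodes a cysteine-rich protein of the capsule around sperm mitochondria. Its lowest, median and highest control signals were 5.28, 5.60 and 5.98, and its irradiated signals were -0.97, -1.75, -3.83, -3.33 and -1.76. Replicate 1 was again the only irradiated array above its median, and Smcp was at least 120-fold lower (limma adjusted p = 1.36e-12). Gsg1 encodes a membrane protein that binds the testis poly(A) polymerase. It had control signals of 5.43, 5.84 and 6.17 and irradiated signals of -0.88, -1.09, -1.15, -1.21 and -1.21. Gsg1 lay above the array median in all 15 arrays, so its change is given as measured, at -6.91 ± 0.12 (SE, limma adjusted p = 1.54e-17). Its irradiated signals lay close to the array medians of -1.38 to -1.26, which are the floor of the bounds, so the fall may be larger. Its second probe set changed by -6.51 ± 0.14 (SE).

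Fam229b, Cabs1 and Meig1 fell from high control signals to signals below every irradiated array's median. For Fam229b the lowest, median and highest control signals were 5.27, 5.50 and 5.78 and the irradiated signals -5.14, -6.09, -6.46, -5.31 and -4.99. All of the latter lay far below the array medians, which leaves at least 114-fold as what was measured. Cabs1, which encodes a calcium-binding protein of spermatids, had 4.52, 4.69 and 5.20 in control and -3.65, -3.49, -5.66, -6.15 and -4.08 in irradiated arrays. It was at least 68.1-fold lower. Meig1, whose product acts at the manchette that shapes the spermatid head and tail, had 3.68, 4.06 and 4.38 in control and -3.67, -3.03, -3.22, -4.50 and -5.55 in irradiated arrays. It was at least 41.6-fold lower, and in none of these 3 genes did the groups overlap. The limma adjusted p-values were 2.52e-17, 1.89e-13 and 2.32e-13.

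The acyl-CoA binding gene Dbil5 was at least 77.5-fold lower and the testis fascin Fscn3, an actin-bundling protein, at least 20.1-fold lower. Tsga10 and Tsga13 were at least 10.5-fold and at least 5.03-fold lower. Tsga10 had the smallest spread over control arrays of the 44 genes (SD 0.13) and Tsga13 the largest over irradiated arrays (SD 1.79), where all its signals lay below the array medians. Gsg1l, a relative of Gsg1 known from neuronal glutamate receptors, fell by 0.59 only (SE 0.14, limma adjusted p = 0.000994), and its ranges overlapped, from -0.68 to -0.04 in control and from -1.46 to -0.49 in irradiated arrays.

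**Figure D3:**
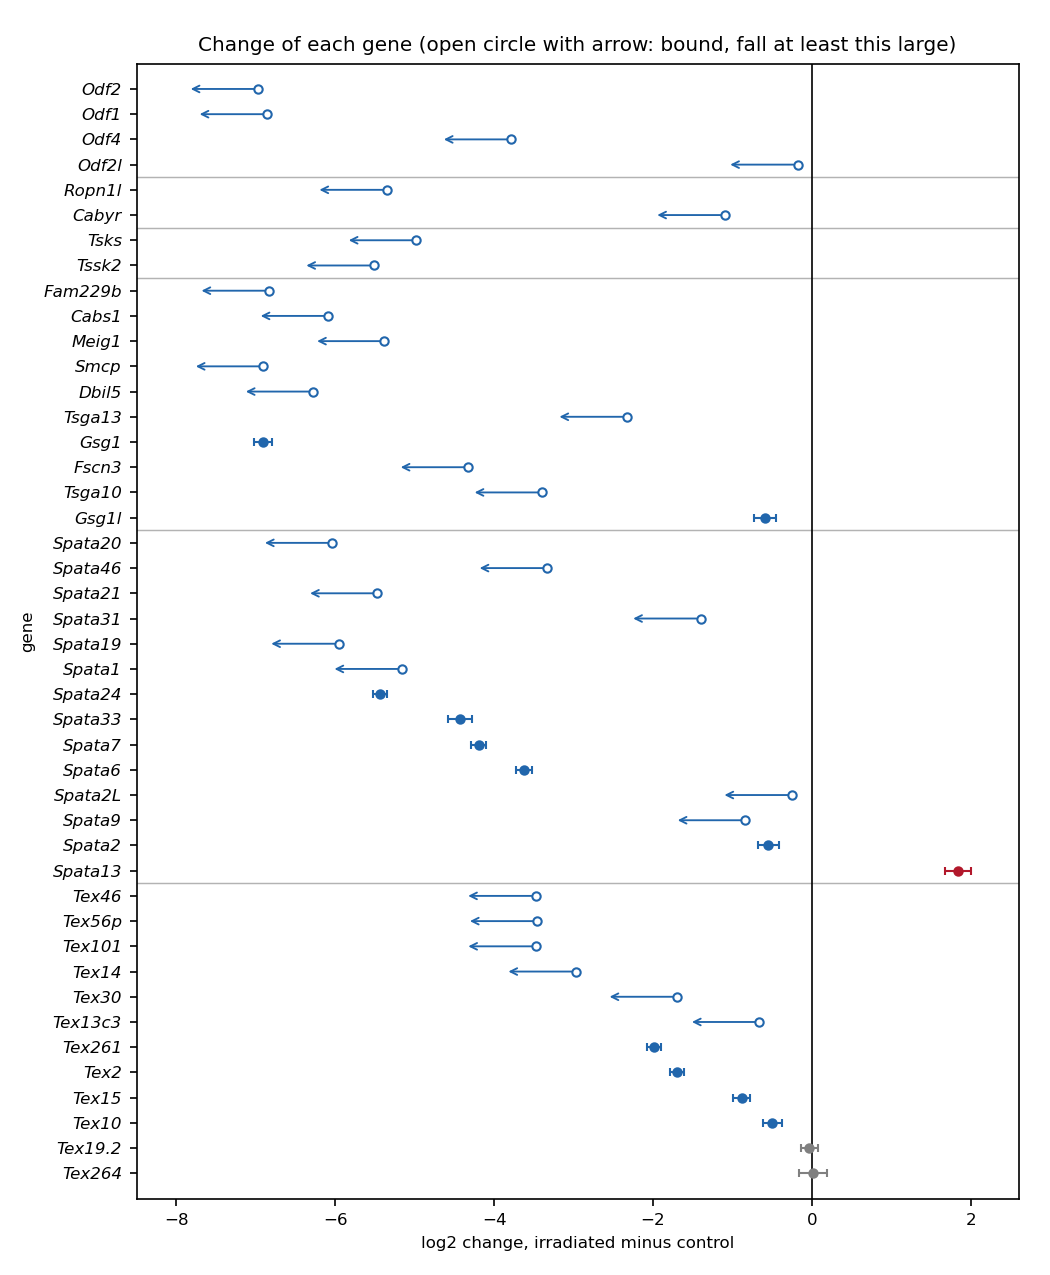
Log2 change, irradiated minus control, of each of the 44 genes. Filled points are measured changes with limma's SE, in grey for Tex19.2 and Tex264, which did not pass, and in red for Spata13, which rose. Open circles with arrows are bounds for the 30 genes whose irradiated mean lay below the array median, and the arrow shows that the fall may be larger, not by how much.

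The Spata symbols brought together 14 genes, of which 13 fell and 1 rose, against 37.9% and 47.6% of all genes. In 7 of the 14 all irradiated signals lay below the array median, so that only a fall could be seen. Spata20 encodes a thioredoxin-like protein of spermatids. Its lowest, median and highest control signals were 4.52, 4.76 and 4.95, and its irradiated signals -5.41, -4.59, -4.68, -6.10 and -4.80. It was at least 65.6-fold lower, with no overlap. Spata21 had 3.91, 4.14 and 4.50 in control and -3.64, -4.34, -3.63, -2.82 and -2.70 in irradiated arrays and was at least 44.3-fold lower. Spata46 had 1.82, 1.96 and 2.30 in control and -6.95, -5.79, -6.01, -5.08 and -6.56 in irradiated arrays and was at least 10.1-fold lower. In all 3 every irradiated signal lay below the array median, so the falls cannot be ranked by the measured changes (limma adjusted p = 8.45e-17, 4.42e-15 and 3.08e-15).

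Spata19, which encodes a mitochondrial protein of spermatids, had control signals from 4.44 to 5.08 and irradiated signals of -1.93, -3.98, -0.67, -1.56 and -2.14. Only irradiated replicate 3 lay above its array's median, unlike Odf1 and Smcp, where it was replicate 1. Spata19 was at least 62.1-fold lower and Spata1 at least 35.8-fold lower. Spata31, a name from a family with several similar copies that a probe set may not tell apart, was at least 2.64-fold lower. Spata9 and Spata2L were at least 1.79-fold and at least 1.19-fold lower. Spata2L is a paralogue of Spata2, and its fall is bounded so loosely because its control mean of -1.06 lay close to the array median.

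A few Spata genes kept a signal above the array median in irradiated testes. Spata6 encodes a protein of the connecting piece between sperm head and tail. Probe set 1368643_at had a lowest, median and highest control signal of 4.55, 4.70 and 4.99 and irradiated signals of 1.45, 0.83, 1.15, 1.01 and 1.18, a change of -3.63 ± 0.10 (SE, limma adjusted p = 5.22e-15). Its other probe set, 1368644_at, had 5.10, 5.32 and 5.73 in control and -0.37, -1.43, -1.24, -0.45 and -0.48 in irradiated arrays. It changed by -6.12 ± 0.17 (SE). The changes differed by 2.49 (exact permutation p = 0.000333, adjusted p = 0.000381). Both fell, so the direction did not depend on the probe set, but the size did.

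Spata7, also known as a protein of photoreceptor cilia, had 4.34, 4.44 and 4.76 as lowest, median and highest control signal and 0.30, 0.31, 0.48, 0.06 and 0.36 in irradiated arrays. It changed by -4.19 ± 0.09 (SE, limma adjusted p = 3.5e-16). Spata24 changed by -5.44 ± 0.09 and Spata33, which encodes a calcineurin-binding protein of the sperm midpiece, by -4.43 ± 0.15. With Gsg1 and Spata6, these were the 5 genes that fell by more than 3 log2 units while their irradiated mean stayed above the array median. For Spata24 and Spata33 this held for the probe set used alone, since the other one lay below the array median in all 5 irradiated arrays. Spata2, which encodes an adaptor of the deubiquitinase Cyld and is found in many tissues, fell by 0.55 ± 0.14 (SE, limma adjusted p = 0.00142), with control signals from -0.47 to 0.27 and irradiated signals from -0.84 to -0.40 that overlapped.

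Spata13 was the one gene that rose. Its product is known outside the germ line. Probe set 1372027_at had a lowest, median and highest control signal of -2.14, -1.42 and -0.87 and irradiated signals of 0.53, 0.34, 0.22, 0.58 and 0.24. All irradiated arrays lay above all control arrays, 6 of 10 control arrays were at or above their own medians, and the change was 1.84 ± 0.17 (SE, limma adjusted p = 2.78e-08). Its 2 other probe sets lay below the array median in all 15 arrays and were not tested. With arrays centred on the Sertoli cell markers the change was -0.33 and did not pass (limma adjusted p = 0.186), so relative to those markers no rise was detected.

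The Tex symbols brought together 12 genes, of which 10 fell and 2 did not pass. Of all genes, 37.9% fell. In 6 of the 12 all irradiated signals lay below the array median, so that only a fall could be seen. Tex46 had 1.77, 2.18 and 2.37 as lowest, median and highest control signal and -5.85, -4.98, -6.08, -4.88 and -6.23 in irradiated arrays, and was at least 11.1-fold lower. Tex56p had control signals from 1.95 to 2.49 and irradiated signals from -4.88 to -2.49 and was at least 11-fold lower. Tex101 encodes a surface glycoprotein of germ cells. It had 1.97, 2.16 and 2.42 in control and -1.58, -1.41, -1.62, -1.68 and -1.74 in irradiated arrays, and was at least 11.1-fold lower. The limma adjusted p-values of these 3 were 1.54e-15, 2.19e-12 and 7.15e-16, and their groups did not overlap.

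Tex14 and Tex15 act before the spermatid stage. Tex14, whose product keeps the bridges between dividing germ cells open, had 1.37, 1.66 and 2.01 in control and -1.78, -1.41, -1.69, -1.50 and -1.73 in irradiated arrays. It was at least 7.85-fold lower (limma adjusted p = 5.93e-14). Tex15, which acts in meiotic recombination and transposon silencing, had control signals of 0.12, 0.34 and 0.56 as lowest, median and highest and irradiated signals of -0.94, -0.38, -0.44, -0.28 and -0.64. All irradiated arrays lay below all control arrays, but the change was only -0.88 ± 0.11 (SE, limma adjusted p = 8.91e-07). Tex30 was at least 3.25-fold lower and Tex13c3 at least 1.58-fold lower.

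Tex19.2 belongs to a pair of germ line genes similar enough that a probe set may read both. It had 0.23, 0.51 and 0.66 as lowest, median and highest control signal and 0.86, 0.45, 0.26, 0.30 and 0.39 in irradiated arrays. The ranges overlapped, with irradiated replicate 1 the highest of all 15 arrays, and the change of -0.03 ± 0.10 (SE) did not pass (limma adjusted p = 0.771). It passed as lower after quantile scaling (-0.40, limma adjusted p = 0.000687). Tex264, which encodes a receptor for autophagy of the endoplasmic reticulum, had -0.73, 0.35 and 0.63 in control and 0.34, 0.10, 0.08, 0.51 and 0.32 in irradiated arrays, a change of 0.01 ± 0.18 (SE, limma adjusted p = 0.954). Its control spread came mainly from replicate 3, which had the lowest signal. Neither result shows that the level stayed the same. Centred on the Sertoli cell markers, both passed as lower, by -2.20 for Tex19.2 and -2.16 for Tex264.

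Tex261, which encodes a membrane protein of the early secretory pathway, gave opposite calls in its 2 probe sets. Probe set 1389557_at had 1.50, 1.74 and 1.94 as lowest, median and highest control signal and -0.38, -0.41, -0.27, -0.11 and -0.32 in irradiated arrays, a change of -1.99 ± 0.09 (SE, limma adjusted p = 2.01e-12). Probe set 1373539_at had -0.23, 0.17 and 0.56 in control and 0.61, 0.30, 0.28, 0.57 and 0.35 in irradiated arrays, a change of 0.29 ± 0.11 (SE, limma adjusted p = 0.0277), with overlapping groups. The changes differed by 2.27 (exact permutation p = 0.000333, adjusted p = 0.000381). The small rise was lost under quantile scaling (-0.09, limma adjusted p = 0.416) and median centring (0.13, limma adjusted p = 0.294). Tex2, a lipid transfer protein of the endoplasmic reticulum, fell by 1.70 (SE 0.09) and Tex10, which acts in ribosome assembly, by 0.50 (SE 0.12, limma adjusted p = 0.00119). The groups did not overlap for Tex2 and overlapped for Tex10.

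**Figure D4:**
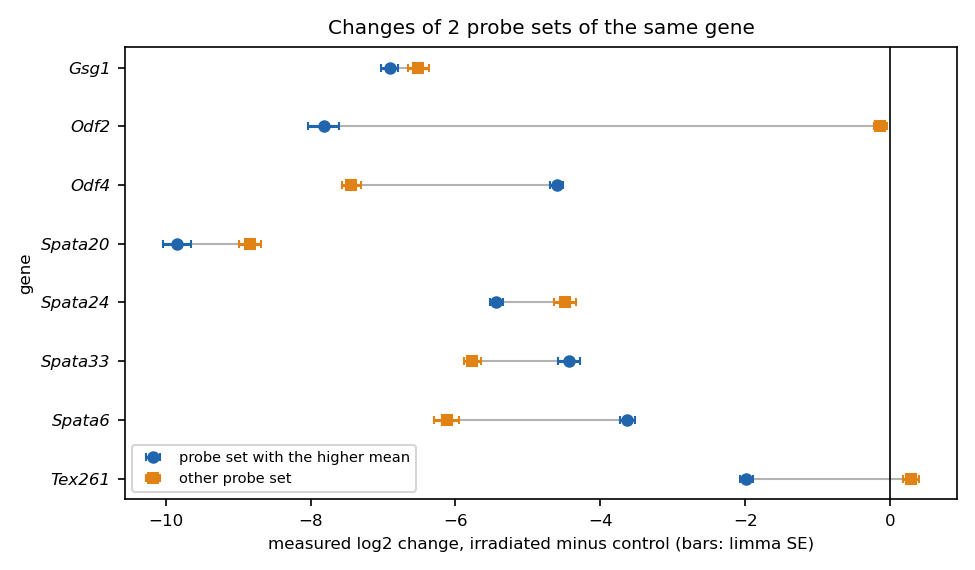
Measured log2 change, irradiated minus control, of 2 probe sets for each of the 8 genes with several tested probe sets. Circles are the probe set with the higher mean over all arrays, squares the other one, and bars limma's SE. Odf2 spans -7.82 to -0.14 and Tex261 -1.99 to 0.29, while both probe sets of the other 6 genes fell.

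In all 8 genes with several tested probe sets the 2 changes differed from each other (exact permutation p between 0.000333 and 0.003, for the within-array difference of the probe sets). For Odf4 the difference of 2.83 lay below the array median in irradiated arrays and became 0.03 with values raised to it (exact permutation p = 0.713). For Spata33 it went from 1.33 to 0.30 and for Spata20 from -1.003 to -0.40 in the same way (exact permutation p = 0.02 and 0.00633). The differences in Odf2, Spata6 and Tex261 stayed above 2 log2 units in size under that setting, at -6.83, 2.48 and -2.27. That of Spata24 went from -0.95 to -2.09 only because raising the values cut short the fall of its other probe set. That probe set lay below the array median in all irradiated arrays.

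A list of genes known outside germ cells, drawn from textbook knowledge with earlier results known, held 12 of the 44. Of these, 10 fell, 1 rose (Spata13) and 1 did not pass (Tex264), while 37.9% of all genes fell and 47.6% rose. The median change of the 12 with bounds was -0.57. In 5 of the 12 all irradiated signals lay below the array median, so that only a fall could be seen. Only Odf2 and Spata20 among the 12 were at least 10-fold lower, and Odf2 was not so in its other tested probe set (-0.14). A fall with bounds cannot exceed the gap between the control mean and the irradiated array medians. Besides Odf2 and Spata20 (control means 5.66 and 4.73), only Tex2 (2.38) had a control signal high enough for a 10-fold fall. The others had control means of 1.69 or lower. This count and the medians with bounds therefore depend on control signal. Of the remaining 32 genes, 31 fell and Tex19.2 did not pass, the median with bounds was -4.26, and 24 were at least 10-fold lower. In 22 of the 32 all irradiated signals lay below the array median. These counts rest on the membership chosen: Spata7 is known in photoreceptors but is not on the list, and Spata20, which is on it, is also known in spermatids. Those of the 32 not counted at 10-fold were Spata31, Spata9, Tex13c3, Tex14, Tex15, Tex19.2, Cabyr and Tsga13. Their control means, at most 1.66, were too low for a 10-fold fall to be counted, so they are not shown to have fallen less. Over all genes tested the median with bounds was 0.19.

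Spermatid genes with other names moved the same way. Of 27 tested genes of that list, 27 fell, against 37.9% of all genes, with a median of -7.10 (-5.54 with bounds). In 23 of them all irradiated signals lay below the array median, so that only a fall could be seen. The transition protein gene Tnp1, the fibrous sheath scaffold Akap4 and the polyamine antizyme Oaz3 were at least 116-fold, 68.1-fold and 129-fold lower. Of 11 tested regulators of spermatid transcription, 11 fell, against the same 37.9%, and 6 of them had all irradiated signals below the array median. Crem was at least 8.4-fold lower, Rfx2 at least 21.2-fold and the RNA-binding protein gene Ybx2 at least 69.7-fold lower, whereas Mybl1, which acts in meiosis, fell by 0.73 and the general factor Tbp by 2.29. The testis poly(A) polymerase Papolb, which Gsg1 binds, was at least 18.2-fold lower.

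Over the 44 genes, the number that reached the array median did not single out an irradiated array. Between 13 and 16 of the 44 genes were at or above the array median in each irradiated array. Replicate 1 had the highest signal of the 5 in 12 genes, replicate 2 in 12, replicate 3 in 7, replicate 4 in 9 and replicate 5 in 4, although most of these signals lay below the median, where they have no order. Among the 27 spermatid genes with other names, however, replicate 1 was highest in 14, although only 3 of the 27 reached the array median there. The protamine gene Prm1 had 0.65 in replicate 1 and -0.91 in replicate 2, above their array medians, and -1.86, -4.74 and -4.14 in replicates 3 to 5. Odf1 and Smcp were above the median in replicate 1 only, whereas Spata19 was so in replicate 3 only. Hspb9, of the same list as Prm1, had its lowest signal in replicate 1 (-3.18) and lay above the median in replicates 2, 3 and 5. In replicate 2, too, 3 of the 27 reached the array median, so these genes do not single out replicate 1.

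Control arrays differed little. The SD of a gene over the 10 control arrays had a median of 0.20 and reached 0.40 in Spata9. Control replicate 6 had the highest signal in 17 of 44 genes, and its mean deviation from the control means was 0.13. Its 3′ actin signal also exceeded its 5′ actin signal, a gap that widens as RNA degrades, by the most, at 1.89, against 0.65 to 1.44 in the other 9. Replicate 5 was lowest in 14 genes, with a mean deviation of -0.11 and an actin difference of 0.79. Without control replicates 6, 7 and 8, which have the 3 largest actin differences, 41 genes fell and 1 rose. Of all 10841 genes, 4057 then fell and 5196 rose.

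The promoters were read for 41 of the 44 genes, since Gsg1, Odf1 and Tex15 had no entry in the table. CpG dinucleotides numbered 12 at the median of the 41 promoters, against 5 over all 33469 promoters of the table. In the 12 genes known outside germ cells the median was 23 (from 1 to 35), and in the 29 others it was 5 (from 0 to 36). Spata20, one of the 2 listed genes that fell at least 10-fold, had 1 CpG, while Odf2 had 20. Spata1, Tsga10 and Ropn1l had 36, 34 and 31 although they were at least 35.8-fold, 10.5-fold and 40.8-fold lower. Over the 41 genes CpG count and change with bounds had a Spearman correlation of 0.10 (0.25 with measured changes), given as a description across genes, which share arrays and base composition.

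**Figure D5:**
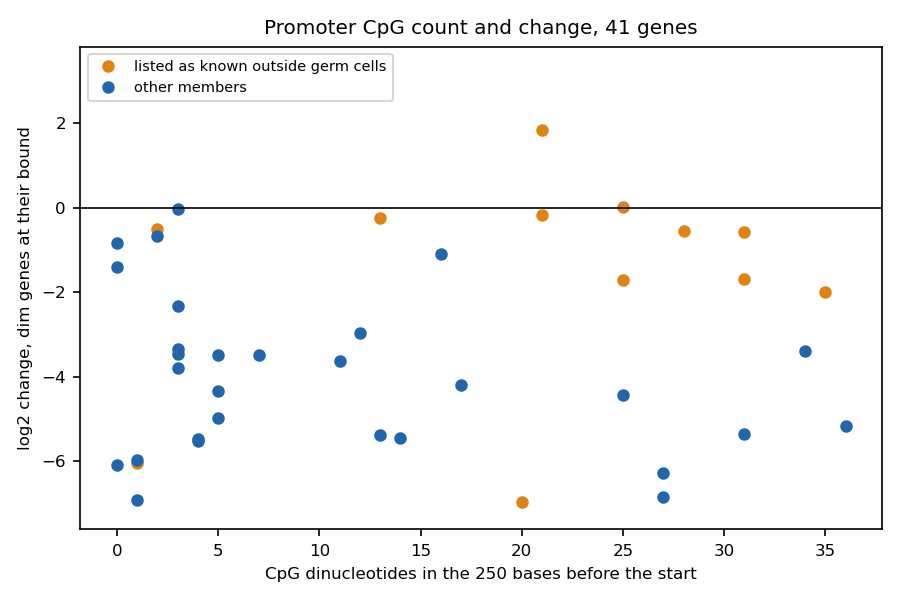
CpG dinucleotides in the 250 bases before the start against the log2 change, irradiated minus control, with genes below the array median at their bound, for 41 genes. Orange points are the 12 genes listed as known outside germ cells and blue points the 29 others. The 29 blue points include falls beyond -5 both at 0 and at 36 CpG, whereas 10 of the 12 orange points lie at -1.99 or above.

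The cyclic AMP response element TGACGTCA, to which Crem binds, was searched on both strands of the same windows. It occurred in 1 of 41 promoters (2.44%), that of Spata7, 94 bases before the start, against 1.59% of all promoters. Its core TGACG, which the full element contains on each strand, occurred in 7 of 41 (17.1%), against 18.2% of all promoters. The 7 were Cabyr, Dbil5, Spata2, Spata2L, Spata6, Spata7 and Tex13c3. A match is a description of these letters in this window, and their absence says nothing about binding elsewhere.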

How the data were processed

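For every array the deposited table gives a log2 signal for each probe set. The submitters' processing notes name MAS5. Scaling, filtering and the step to log2 are not given in the sources used here, and the log2 unit was read from the values. Per the labels, cRNA was made from 10 µg of RNA. There is no depth to give for arrays, whose number sets the precision.

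Genes were named from the platform annotation of 2016, and all 44 gene identifiers were found in a RefSeq table of GRCr8 with no symbol changed. Members and lists were chosen with earlier results of these data known. The 57 control probe sets were left out, and 18711 of 31042 others reached the array median in at least 5 of 15 arrays. These were compared with limma 3.58.1 (lmFit, eBayes, 2-sided, no covariate) in R 4.3.3, with Benjamini-Hochberg adjustment over all of them. The probe set with the highest mean stood for its gene. In each role group the 3 largest falls, the 3 largest rises, all genes that did not pass and genes with opposite probe sets were named by rule, and the others were chosen after their values were seen. The fit was tested on simulated data. Alternatives were other scalings, filters, floors, probe set choices, a replicate block and each array left out.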

Additional observations from a re-analysis of the deposited data

Results flagged for a closer look

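A sample far from the rest of its group was found in 4 of 104 groups of arrays (52 tested probe sets in both conditions), where chance flags about 1 in 20. In irradiated replicate 2 the Spata2L signal was -5.50, against -3.24 to -2.70 in the other irradiated arrays, all below the array median. In irradiated replicate 3 Spata33 (1385830_at) was -2.78, against -2.30 to -2.12, also below the median. In irradiated replicate 1 Tex2 was 0.92, against 0.59 to 0.65. In control replicate 3 Tex264 was -0.73, against 0.01 to 0.63.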

How the results depend on the processing

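Of the 44 genes, 41 fell and 1 rose when each array was left out in turn (41 to 41 and 1 to 1), with medians from -5.57 to -5.51, while all genes gave 4025 to 4117 lower and 5003 to 5181 higher. Centring on the Sertoli cell markers left 0 genes higher and a median of -7.71, and gave 8977 lower and 799 higher of all genes. Of all calls, 8.17% were then higher, against 55.7% as deposited. The median of the 44 was -5.70 with median centring, -5.99 with a filter at the 75th percentile (40 genes tested), -3.48 with values raised to the array median, -2.38 with a pseudocount of 1 on the linear scale, -5.37 with the mean over probe sets and -4.61 without probe sets ending in _s_at, _x_at or _a_at (43 genes tested). In that last setting Odf2 did not pass (-0.14, adjusted p = 0.159), since its other probe set then stands for it. The median change of all genes was 0.20 as deposited, -0.06 after quantile normalization and -1.97 after centring on the Sertoli cell markers.

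Directions reversed in 3 genes. Spata13 was -0.33 with Sertoli centring. Tex264, which did not pass as deposited (up to 0.058 with an array left out), was -0.36 with quantile normalization, -0.14 with median centring, -2.16 with Sertoli centring, -0.0036 with the pseudocount, -0.10 without control replicate 3, -0.02 without control replicate 9, -0.0053 without irradiated replicate 1 and -0.05 without irradiated replicate 4. Tex19.2 (down to -0.13 with an array left out) was 0.014 without irradiated replicate 3 and 0.0051 without irradiated replicate 4. For these the cause was not tested. The replicate block gave 41 lower and 1 higher with a median of -5.50, and 3950 lower and 5000 higher of all genes. Same-numbered arrays of the 2 groups had residual correlations from -0.0473 to 0.0692, so the numbers were not taken as pairs, and 1 of 5 irradiated arrays correlated best with its own number.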
